A study of Mus musculus with 19 samples.

Results

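Transcript levels of 10 genes of the ATF4 pathway and the unfolded protein response were described across 10 mouse liver tumours. The genes were taken from a fixed list of symbols (Atf4, Ddit3, Asns, Chac1, Trib3, Psat1, Hspa5, Xbp1, Herpud1 and Dnajb9), and all 10 were found among the 39179 gene identifiers of the count table. The series holds 13 tumours, 3 control livers and 3 high AAV control livers, and tumours 04 to 13 were analysed here. Each of these tumours arose in a male mouse that carried 1 Ctnnb1tm1Mmt allele (HET), which stabilises β-catenin after recombination, and the Cre-dependent human MYC insertion Gt(ROSA)26Sortm1(MYC)Djmy on both alleles (HOM). Cre came from the vector AAV8.TBG.PI.Cre.rBG, given to adult mice at 640000000 genome copies each. The thyroxine-binding globulin (TBG) promoter of this vector restricts Cre to hepatocytes, and at this low dose few hepatocytes recombine, so that a tumour grows from single targeted cells while its other cells keep the unrecombined alleles. The age of the animals at collection was not given in the labels. Control livers were not analysed here, so every value below compares tumours of 1 genotype with one another.

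ATF4 is a transcription factor whose protein is made when kinases such as PERK (in the endoplasmic reticulum, ER) or GCN2 (on amino acid shortage) phosphorylate the translation factor eIF2α, which slows most protein synthesis. ATF4 raises genes for amino acid supply (Asns, Psat1) and stress regulators (Ddit3, which encodes CHOP, Trib3 and Chac1). The ER arm of the unfolded protein response is read by PERK, IRE1 and ATF6: IRE1 splices the Xbp1 transcript, and XBP1 and cleaved ATF6 raise chaperones such as Hspa5 (BiP) and degradation factors such as Herpud1. Hepatocytes secrete most plasma proteins and so carry a heavy ER load. ATF4 and XBP1 are controlled largely by translation and by splicing, which counts per gene do not show. Gene counts of bulk tissue also cannot separate fewer cells of a type from less RNA per cell.

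Promoters of 5 of the 10 members held a sequence element through which these pathways are known to act, and 4 are shown because they hold it within 250 bases upstream of the start. The sequences are RefSeq promoters on GRCm38.p6, written 5′ to 3′ in the direction of transcription, with the matched element in capitals.
Hspa5 (chr2:34771840-34772089, forward strand), with the ER stress element:
Hspa5: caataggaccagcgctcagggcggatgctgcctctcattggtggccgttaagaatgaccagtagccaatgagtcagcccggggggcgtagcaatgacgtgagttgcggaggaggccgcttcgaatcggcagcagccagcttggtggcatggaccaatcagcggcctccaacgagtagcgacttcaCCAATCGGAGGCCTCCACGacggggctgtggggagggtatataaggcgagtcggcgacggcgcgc
Herpud1 (chr8:94386179-94386428, forward strand), with a C/EBP-ATF response element on the opposite strand and a variant ER stress element:
Herpud1: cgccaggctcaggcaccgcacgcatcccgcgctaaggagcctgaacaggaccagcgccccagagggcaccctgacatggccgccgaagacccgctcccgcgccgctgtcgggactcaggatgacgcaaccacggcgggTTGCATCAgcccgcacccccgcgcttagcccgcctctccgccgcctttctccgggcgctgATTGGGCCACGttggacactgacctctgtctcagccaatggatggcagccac
Asns (chr6:7693210-7693459, reverse strand), with a C/EBP-ATF response element:
Asns: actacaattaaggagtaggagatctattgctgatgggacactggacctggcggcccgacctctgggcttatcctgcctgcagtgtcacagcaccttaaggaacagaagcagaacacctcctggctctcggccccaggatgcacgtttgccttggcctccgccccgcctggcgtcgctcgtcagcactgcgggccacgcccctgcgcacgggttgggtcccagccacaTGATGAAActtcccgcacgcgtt
Chac1 (chr2:119350992-119351241, forward strand), with a C/EBP-ATF response element on the opposite strand:
Chac1: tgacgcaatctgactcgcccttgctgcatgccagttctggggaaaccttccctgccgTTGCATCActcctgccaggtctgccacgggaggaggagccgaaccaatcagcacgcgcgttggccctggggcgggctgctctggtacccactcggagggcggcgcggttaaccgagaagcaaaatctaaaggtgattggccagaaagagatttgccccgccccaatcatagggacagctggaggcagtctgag

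The motifs were searched on both strands of all promoters in the RefSeq table, from 250 bases before to 50 after the start (11 for the members, since Psat1 has 2). The ER stress element (CCAAT, 9 free bases and CCACG), the joint site of the factor NF-Y and of ATF6, was present in 1 member, Hspa5, from base -65 to base -47 relative to the start, and in 0.119% of the 32851 promoters. Its variant (ATTGG, 1 free base and CCACG) was present in 1 member, Herpud1, from base -52 to base -42, and in 0.0365% of all promoters. The C/EBP-ATF response element (TGATGNAA), to which ATF4 binds with a C/EBP partner, was present in 4 members and in 3.97% of all promoters. These were Asns from base -23, Chac1 from base -193, Herpud1 from base -112 and Trib3 from base 15 after the start. CCACG, which is also part of both ER stress elements, was present in 7 members and in 32.8% of all promoters, and the cyclic AMP type element (TGACGTCA) in 0 members and 1.79% of all promoters. Promoters of Atf4, Ddit3, Psat1, Xbp1 and Dnajb9 held neither ER stress element and no C/EBP-ATF response element in this window. A match describes letters only, and binding was not measured.

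The libraries held between 11687034 and 36964427 counts over genes, with a median of 16664597. Levels are given as CPM (counts with each library scaled to 1000000 after TMM adjustment), and 3 counts correspond to between 0.0767 and 0.277 CPM. The column of each tumour carries a tag whose meaning the labels do not give. The 5 tags fall into 3 families (tumours 04 to 06, 07 and 08, and 09 to 13), and tumours 05 and 06 share a tag. Tumours with the same tag may come from 1 animal, so p-values measure only the spread between these samples. Hepatocyte markers (6 genes, among them Alb and Ttr) summed to between 21846 CPM in tumour 05 and 34824 CPM in tumour 08. All 6 were detected in every tumour, the lowest being Serpina1c with 0.893 CPM in tumour 05 and up to 121 CPM elsewhere. Small non-polyadenylated RNAs (6 genes, mainly Rpph1 and Rmrp), which poly(A) selection should remove, summed to 64.6, 50.1 and 86.7 CPM in tumours 05, 06 and 07 and to at most 7.72 CPM in the other 7. Markers of B and plasma cells (7 genes), a secretory cell type with an active ER response, summed to 0.669 to 6.88 CPM and to 2.36 CPM in tumour 05. Most of the latter was Igkc (28 counts, 1.79 CPM). Mzb1 and Tnfrsf17 were at 0 there, as was Tnfrsf17 in 8 of the 10 tumours. Markers of pancreatic acinar cells (8 genes) other than Cela1 were at most 1.45 CPM, T and NK cell markers (5 genes) summed to at most 4.60 CPM, and Amy2a5 was at 0 in all 10 tumours. Among markers of other liver cells, tumour 05 ranked 4 of 10 for the summed level of endothelial genes (191 CPM), 9 for macrophage genes (121 CPM), 4 for stellate and fibroblast genes (875 CPM), 6 for cholangiocyte genes (66.8 CPM) and 7 for erythroid genes (219 CPM). Markers within these sums went different ways in tumour 05, so the ranks do not measure cell content. Cd68 (68.3 CPM) and Sox9 (50.7 CPM) were at their highest there. Eng, Clec4g, Adgre1, Csf1r, Clec4f, Marco, Cd5l, Lrat, Spp1, Hba-a2 and Alas2 were at their lowest.

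**Figure D1:**
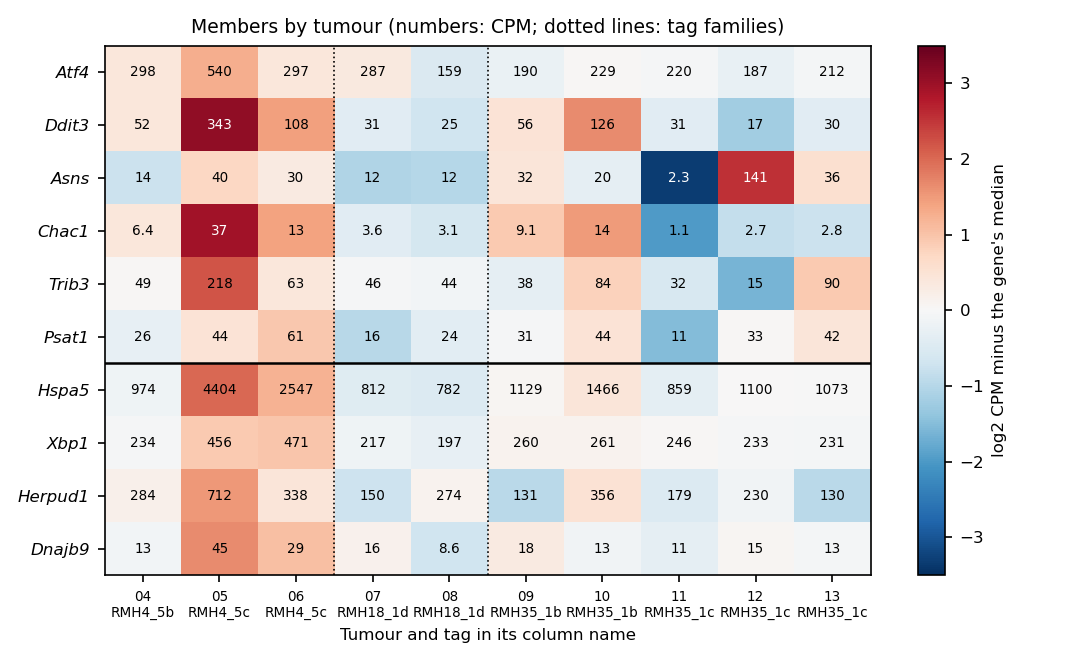
Levels of the 10 members in each of the 10 tumours. Numbers are CPM and colours are log2 CPM minus the median of the gene, with Atf4 and its targets above the black line, ER genes below it, and dotted lines between tag families. Tumour 05 is the darkest red column, whereas Asns is highest in tumour 12 and lowest in tumour 11.

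Tumour 05 had the highest level of 7 of the 10 members (Atf4, Ddit3, Chac1, Trib3, Hspa5, Herpud1 and Dnajb9), tumour 06 that of Psat1 and Xbp1, and tumour 12 that of Asns. Over all 12462 genes kept, tumour 05 was the highest of 10 for 18.3% and tumour 05 or 06 for 25.8%. Counting by the highest tumour was chosen after the values were seen. All 10 members passed the filter on low counts. The highest tumour exceeded the lowest at least 2-fold for 10 of 10 members, which also held for 54.7% of all genes kept, and at least 4-fold for 8 members and 15.9% of genes. Without tumour 05, 9 members differed at least 2-fold (47.5% of genes) and 5 at least 4-fold (13.6%). Without tumours 05 and 06, these counts were 7 (43% of genes) and 4 (12.3%).

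Atf4 (ENSMUSG00000042406, chromosome 15, 80139372 to 80141745, GRCm39) had a lowest value of 159 CPM in tumour 08, a median of 225 CPM and a highest of 540 CPM in tumour 05. Tumour 05 stood 1.81-fold above the next, tumour 04 (298 CPM), and the other 9 spanned 1.87-fold. Relative to the other tumours, Atf4 in tumour 05 was 1.26 higher on the log2 scale, while the median of 489 other chromosome 15 genes was 0.17 higher, and in tumour 04 the values were 0.30 and 0.33. The SD of log2 CPM of Atf4 was 0.50, above that of 75.3% of genes kept, and 0.32 without tumour 05. Atf4 thus had the second smallest spread of the members, after Xbp1.

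Ddit3 (ENSMUSG00000025408, chromosome 10, 127124268 to 127132163), which encodes the transcription factor CHOP that promotes cell death under lasting ER stress, ranged more widely. Its lowest value was 17.2 CPM in tumour 12, its median 41.6 CPM and its highest 343 CPM in tumour 05, a 19.9-fold range. Tumours 10 (126 CPM) and 06 (108 CPM) followed, and the other 7 lay between 17.2 and 55.8 CPM. Chac1 (ENSMUSG00000027313, chromosome 2, 119180757 to 119184866), a γ-glutamyl cyclotransferase that degrades glutathione, had the same top 3 tumours. Its lowest value was 1.14 CPM in tumour 11, on 18 counts, its median 4.99 CPM and its highest 37.3 CPM in tumour 05, and tumours 10 and 06 had 13.6 and 12.9 CPM. Trib3 (ENSMUSG00000032715, chromosome 2, 152179337 to 152191958), a pseudokinase that dampens ATF4 and AKT signalling, had a lowest value of 15.3 CPM in tumour 12, a median of 47.5 CPM and a highest of 218 CPM in tumour 05. For Trib3, tumours 13 (90.1 CPM) and 10 (83.6 CPM) followed, so tumours 05 and 10 were among the 3 highest for all 3 of these stress regulators.

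For the amino acid enzymes, tumour 05 was not the highest. Asns (ENSMUSG00000029752, chromosome 6, 7671667 to 7728461), which makes asparagine, had a lowest value of 2.33 CPM in tumour 11, on 37 counts, a median of 24.7 CPM and a highest of 141 CPM in tumour 12. These extremes, 60.6-fold apart, were in tumours that carry the same tag, and tumour 13 with that tag had 35.5 CPM. Tumour 12 stood 3.53-fold above the second, tumour 05. The SD of log2 CPM of Asns was 1.53, above that of 99.0% of genes kept and the largest of the 10 members, and it was 1.58 without tumour 05. Psat1 (ENSMUSG00000024640, chromosome 19, 15882039 to 15924701), an enzyme of serine synthesis, was lowest in tumour 11 as well, with 11.0 CPM, had a median of 31.6 CPM and was highest in tumour 06 with 60.7 CPM. Tumours 05, 10 and 13 had 44.0, 43.9 and 42.2 CPM of Psat1, so tumour 05 did not stand apart for this gene.

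Among the ER genes, Hspa5 (ENSMUSG00000026864, chromosome 2, 34661982 to 34668880), the main chaperone of the ER lumen, was lowest in tumour 08 with 782 CPM, had a median of 1086 CPM and was highest in tumour 05 with 4404 CPM. Tumour 06 had 2547 CPM, and the other 8 lay between 782 and 1466 CPM, so the 2 tumours with this tag were above all others. Xbp1 (ENSMUSG00000020484, chromosome 11, 5470606 to 5483027) had the narrowest range, from 197 CPM in tumour 08 over a median of 240 CPM to 471 CPM in tumour 06. Tumour 05 followed at 456 CPM, and the other 8 did not exceed 261 CPM. Dnajb9 (ENSMUSG00000014905, chromosome 12, 44252341 to 44257171), a BiP co-chaperone that is a target of XBP1, had its lowest value in tumour 08 at 8.60 CPM, a median of 14.1 CPM and its highest, 44.7 CPM, in tumour 05, followed by 29.5 CPM in tumour 06. Tumours 05 and 06 were again the highest pair, and the third, tumour 09, had 17.6 CPM. Herpud1 (ENSMUSG00000031770, chromosome 8, 95113022 to 95123141), a scaffold of ER-associated degradation, had a lowest value of 130 CPM in tumour 13, a median of 252 CPM and a highest of 712 CPM in tumour 05. Here tumour 10 (356 CPM) came second, ahead of tumour 06 (338 CPM), the top 3 seen for Ddit3 and Chac1.

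**Figure D2:**
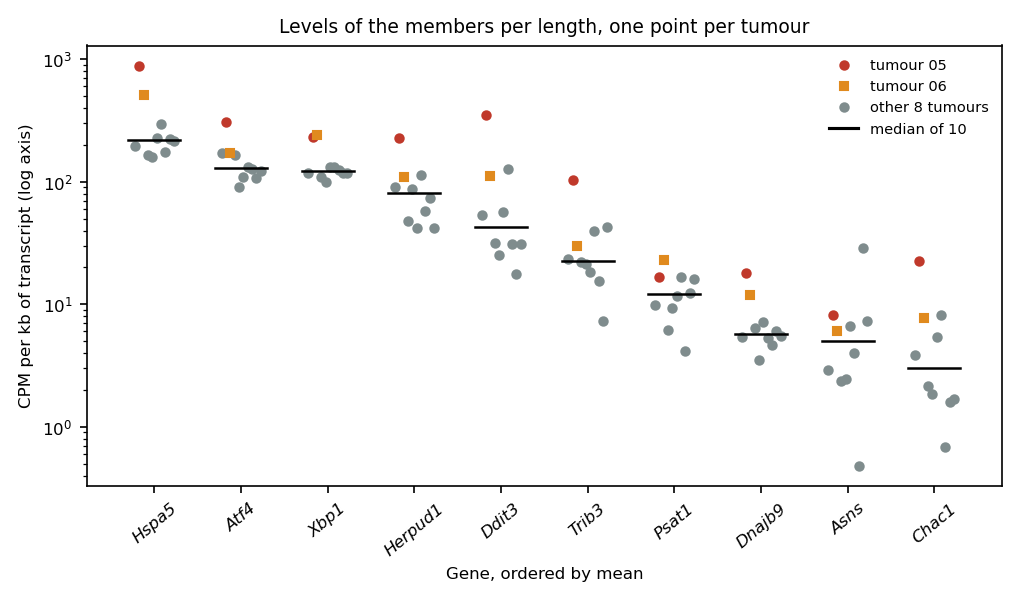
Levels of the members per length, as CPM per kb of the canonical transcript on a log axis, 1 point per tumour and a bar at the median of 10. Hspa5 has the highest mean, Asns and Chac1 the widest spread, and the red point of tumour 05 is the highest in 7 of 10 genes.

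Per length of the canonical GENCODE transcript, Hspa5 had the highest level with 306 ± 230 CPM per kb (SD, n = 10), followed by Atf4 with 150 ± 62.6 and Xbp1 with 143 ± 49.9. Herpud1 (89.3 ± 55.6), Ddit3 (83.6 ± 101) and Trib3 (32.5 ± 27.5 CPM per kb) came next, and Psat1 (12.6 ± 5.68), Dnajb9 (7.39 ± 4.41), Asns (6.91 ± 8.10) and Chac1 (5.56 ± 6.48 CPM per kb) were lowest. Neighbours in this order were compared by the difference of log2 level within each tumour. The mean difference was smaller than its SD for Atf4 and Xbp1 (0.06 ± 0.35), Herpud1 and Ddit3 (0.53 ± 0.90), Dnajb9 and Asns (0.61 ± 1.41) and Asns and Chac1 (0.33 ± 1.66), whose order is therefore not resolved. The other 5 steps exceeded their SD, the first being Hspa5 over Atf4 by 0.87 ± 0.53 and higher in 9 of 10 tumours. This order depends on the length used. With the union of exons over all annotated transcripts, Herpud1 (71.9 CPM per kb) lies above Xbp1 (40.5), Trib3 (20.1) above Ddit3 (14.7) and Chac1 (3.56) above Asns (2.89 CPM per kb), so the steps from Xbp1 to Herpud1 and from Ddit3 to Trib3 turn around.

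Hypoxia and immediate early genes were also high in tumours 05 and 06. The 10 hypoxia genes, which include Slc2a1 and Bnip3, summed to 2979 and 1988 CPM in these tumours, with a median over all tumours of 1147 CPM. The 13 immediate early and heat shock genes summed to 3155 and 2632 CPM, against a median of 554 CPM. Proliferation genes (12, among them Mki67) were lowest in tumour 05 at 179 CPM, with a median of 259 CPM. In the fit on Hspa5 described below, 3 of 8 hypoxia genes kept and 2 of 11 immediate early and heat shock genes rose, beside 2.42% of all genes, and 0 with the tag family as a covariate or the rank of Hspa5. The latter 2 were Atf3 and Ier2, and Atf3 is counted again below in the list of ATF4 partners and the CHOP arm. Their median r with Hspa5 was 0.67 and 0.62, and 0.32 and 0.40 without tumour 05. The part of these measures in the levels of the members was not tested.

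Correlations between the members were computed across the 10 tumours for all 45 pairs. Pearson's r was above 0 for 44 pairs, with a median of 0.69, and 16 pairs had an adjusted p under 0.05 (permutation test with 100000 resamples, Benjamini-Hochberg over 45 pairs), as had 3 pairs by Spearman's rho. An r of at least 0.7 was reached by 22 of 45 pairs and by 2.72% of all pairs of genes kept. The closest pairs were Hspa5 and Xbp1 (r = 0.94, permutation p = 0.00059, adjusted p = 0.0133; rho = 0.88, permutation p = 0.00192, adjusted p = 0.0288) and Ddit3 and Chac1 (r = 0.92, permutation p = 0.00025, adjusted p = 0.0112; rho = 0.92, permutation p = 0.00052, adjusted p = 0.0234). By rho, Psat1 and Hspa5 also passed (rho = 0.89, permutation p = 0.00123, adjusted p = 0.0277; r = 0.69, permutation p = 0.0295, adjusted p = 0.0553), and their r was 0.80 without tumour 05 (exact permutation p = 0.00915, adjusted p = 0.103) and 0.73 without tumours 07 and 11, the 2 farthest from the median of Psat1 (exact permutation p = 0.0367). The pairs of Asns, with the exception of Psat1 (r = 0.72, permutation p = 0.0207, adjusted p = 0.0506; rho = 0.72, permutation p = 0.0223, adjusted p = 0.134), had an r of at most 0.41. Asns with Hspa5 had an r of 0.40 (permutation p = 0.256, adjusted p = 0.303), a rho of 0.68 (permutation p = 0.0345, adjusted p = 0.134) and, without tumours 11 and 12, an r of 0.70 (exact permutation p = 0.0441). Without these 2 tumours, the extremes of Asns, r was also 0.67 with Dnajb9, 0.67 with Xbp1, 0.60 with Trib3, 0.57 with Ddit3, 0.55 with Chac1, 0.34 with Atf4 and 0.16 with Herpud1 (exact permutation p = 0.0655, 0.0747, 0.0957, 0.14, 0.156, 0.442 and 0.718). Asns and Atf4, an enzyme gene and its known activator, had an r of 0.05 over all 10 tumours (permutation p = 0.872, adjusted p = 0.891) and a rho of -0.04 (permutation p = 0.919, adjusted p = 0.919).

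**Figure D3:**
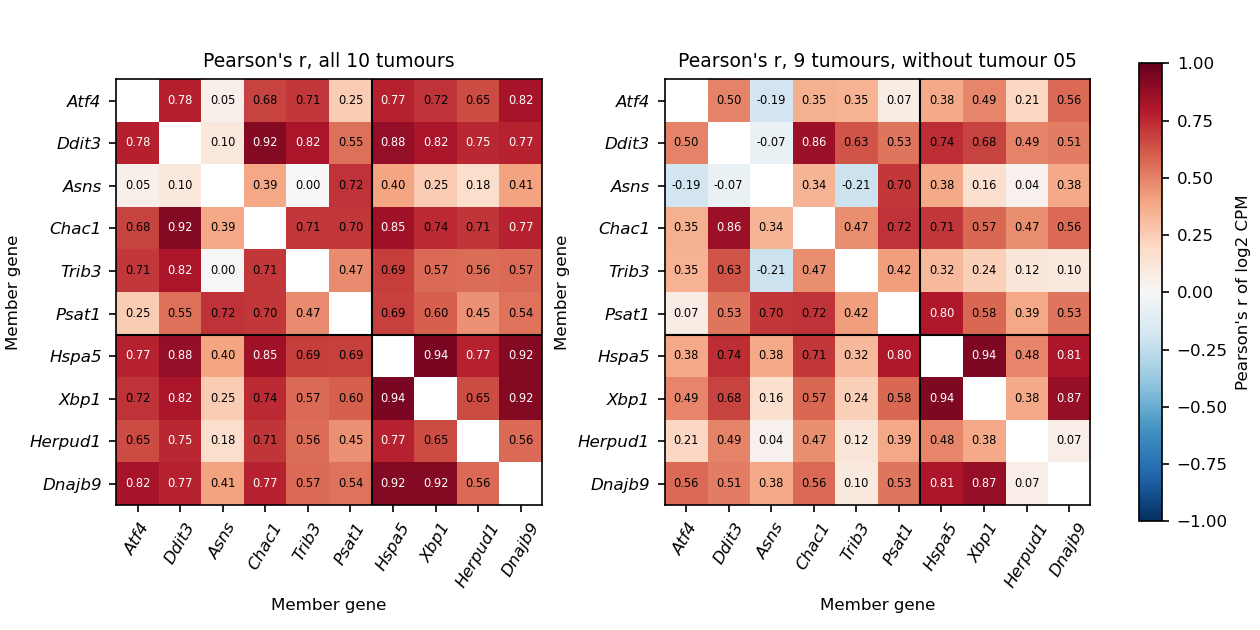
Pearson's r of log2 CPM for the 45 pairs of members over all 10 tumours (left) and over 9 tumours without tumour 05 (right). Black lines separate Atf4 and its targets from the ER genes. The median falls from 0.69 to 0.47, while Hspa5 with Xbp1 stays at 0.94.

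Much of this correlation rested on 1 tumour. Without tumour 05 the median r over the 45 pairs was 0.47, 42 pairs were above 0 (49.9% of all gene pairs were), and 9 pairs reached 0.7 against 2.84% of all gene pairs. Only Hspa5 with Xbp1 then had an adjusted p under 0.05 (r = 0.94, exact permutation p = 0.00103, adjusted p = 0.0465). Ddit3 with Chac1 had an r of 0.86 (exact permutation p = 0.0025, adjusted p = 0.0562). Without tumour 06 or 08 alone, 6 and 10 pairs passed. Without tumours 05 and 06, which for Hspa5 are also the 2 farthest from the median, the median r was 0.31 and no pair had an adjusted p under 0.05 (4 at an unadjusted p under 0.05). The r was then 0.77 for Hspa5 with Xbp1 (exact permutation p = 0.0263) and 0.82 for Ddit3 with Chac1 (exact permutation p = 0.0135). After removal of tumours 05 and 10, the 2 farthest from the median of Ddit3, Ddit3 with Chac1 had an r of 0.81 (exact permutation p = 0.0145), and without those farthest for Asns (11 and 12), Asns with Psat1 had an r of 0.77 (exact permutation p = 0.029). On deviations from the tag family means, r was 0.87 for Ddit3 with Chac1 (exact permutation within families, p = 0.0125) and 0.87 for Hspa5 with Xbp1 (p = 0.105). Over the 7 tumours with low Rpph1 and Rmrp, these pairs had an r of 0.82 (exact permutation p = 0.0246) and 0.73 (exact permutation p = 0.0605). By arm, the 6 pairs among ER genes had a median r of 0.84 and 0.65 without tumour 05, the 15 pairs of Atf4 and its targets 0.68 and 0.42, and the 24 pairs across the arms 0.69 and 0.48.

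Each gene was next fitted on the level of Hspa5 across tumours, so that a slope of 1 means a gene that doubles when Hspa5 doubles. With edgeR's quasi-likelihood test and Benjamini-Hochberg adjustment over 12461 genes, 5 of the 9 other members rose with Hspa5 at an adjusted p under 0.05 and 0 fell, against 2.42% of all genes rising and 2.85% called in either direction. Dnajb9 had a slope of 0.78 ± 0.11 (SE, edgeR adjusted p = 0.00837) and Xbp1 of 0.52 ± 0.08 (adjusted p = 0.0113). The stress regulators Ddit3 (1.45 ± 0.20, edgeR adjusted p = 0.00837) and Chac1 (1.47 ± 0.26, adjusted p = 0.02) had the steepest slopes, and Herpud1 had 0.71 ± 0.17 (adjusted p = 0.047). Trib3 (slope 0.87 ± 0.22, edgeR adjusted p = 0.0611), Atf4 (0.47 ± 0.12, adjusted p = 0.0653), Psat1 (0.62 ± 0.21, adjusted p = 0.12) and Asns (0.33 ± 0.61, adjusted p = 0.816) did not pass. DESeq2's Wald test called 8 of the 9 members, all but Asns, beside 4.99% of all genes rising.

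**Figure D4:**
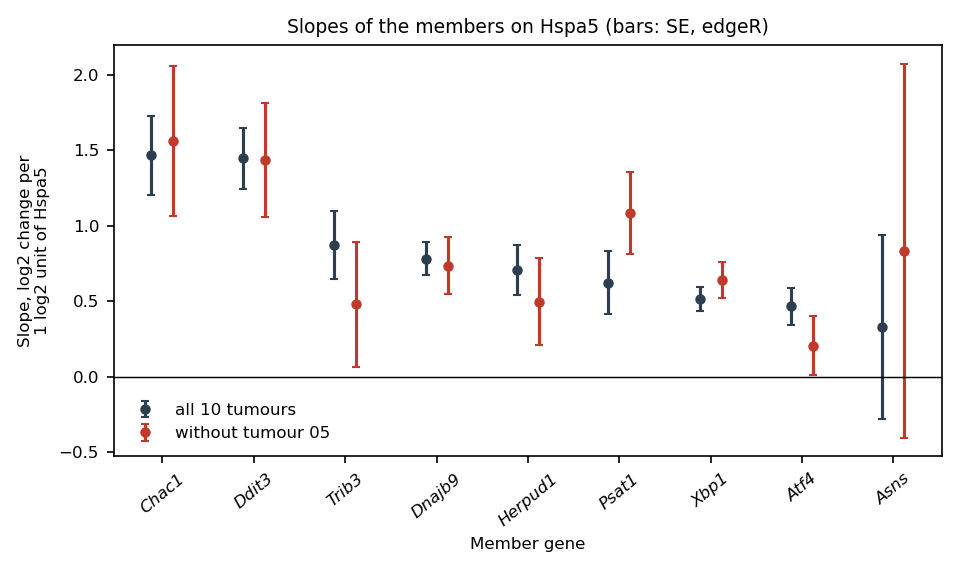
Slopes of the other 9 members on Hspa5, as log2 change per log2 unit of Hspa5, with SE from edgeR, over all 10 tumours (dark) and without tumour 05 (red). Chac1 and Ddit3 keep slopes of 1.56 and 1.43 without tumour 05, with wider bars.

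These calls did not hold without tumour 05, when 0 of 9 members and 2 of 12633 genes were called in edgeR (5 members and 933 genes at an unadjusted p under 0.05). The slopes were then 1.43 ± 0.38 for Ddit3, 1.56 ± 0.50 for Chac1, 0.74 ± 0.19 for Dnajb9 and 0.64 ± 0.12 for Xbp1, while Trib3 had 0.48 ± 0.41, Herpud1 0.50 ± 0.29 and Atf4 0.21 ± 0.20. Psat1 and Asns had larger slopes than over 10 tumours, at 1.08 ± 0.27 (edgeR adjusted p = 0.356) and 0.83 ± 1.24 (adjusted p = 0.929). With the tag family as a covariate, 0 members and 0 genes were called in edgeR (6 members and 1034 genes at an unadjusted p under 0.05), and with the level of the non-polyadenylated RNAs 0 members and 5 genes (8 members and 2126 genes at an unadjusted p under 0.05). With the family the slopes were 1.40 ± 0.35 for Ddit3, 1.45 ± 0.45 for Chac1, 0.76 ± 0.20 for Dnajb9, 0.44 ± 0.14 for Xbp1 and 0.65 ± 0.26 for Herpud1, with larger SE than in the fit without it. With the non-polyadenylated RNAs they were 1.47 ± 0.28, 1.53 ± 0.35, 0.67 ± 0.12, 0.47 ± 0.10 and 0.75 ± 0.23. Herpud1 also missed the threshold without tumour 06, 07, 10, 11, 12 or 13 (edgeR adjusted p from 0.055 to 0.0896), with total-count scaling and with no filter on low counts. Atf4 passed without tumour 07 (edgeR adjusted p = 0.0422) and Trib3 without tumour 12 (adjusted p = 0.0364), so a count of 5 did not always stand for the same members. Without tumours 05 and 06 the slope of Ddit3 was 2.13, that of Chac1 2.44 and that of Atf4 -0.07, and 0 genes were called (323 at an unadjusted p under 0.05).

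With Atf4 as the covariate, 0 of the 9 other members were called in edgeR, against 9 of 12461 genes rising (0.0722%) and 3 falling (0.0963% in either direction), although 7 members and 2341 genes had an unadjusted p under 0.05. The largest slopes were those of Ddit3 (2.01 ± 0.43, edgeR adjusted p = 0.0708) and Chac1 (1.85 ± 0.52, adjusted p = 0.114). Dnajb9 (1.14 ± 0.23, edgeR adjusted p = 0.0686) and Hspa5 (1.29 ± 0.28, adjusted p = 0.0708) came closest to the threshold besides Ddit3, and Asns had -0.41 ± 0.76 (adjusted p = 0.814). DESeq2's Wald test called 5 members rising (Dnajb9, Ddit3, Hspa5, Chac1 and Trib3), beside 2.37% of genes. Without tumour 05, 0 genes were called in edgeR (696 at an unadjusted p under 0.05), and the slope of Dnajb9 was 0.92 ± 0.44 (edgeR adjusted p = 0.882). That of Hspa5 was then 0.87 ± 0.52, that of Trib3 0.63 ± 0.73, that of Herpud1 0.37 ± 0.53 and that of Asns -2.07 ± 1.44, whereas without tumour 12 Asns had 0.53 ± 0.57. Without tumour 07, Hspa5 passed (slope 1.36 ± 0.24, edgeR adjusted p = 0.0424). Without tumour 09, Dnajb9 passed (slope 1.25 ± 0.23, edgeR adjusted p = 0.0409).

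The genes with the profile most like Atf4, by Pearson's r over the 10 tumours among non-members, were ENSMUSG00000059511 (r = 0.95), Actr8 (0.94), Tbrg1 (0.94), Selenok (0.94), Brpf1 (0.93), Tada3 (0.93), Slu7 (0.92), Bnip3l-ps (0.92), Leng1 (0.92) and Bnip3l (0.91). Selenok, which encodes a selenoprotein of the ER membrane, ranged from 18.4 to 72.2 CPM, the latter in tumour 05, and had an r of 0.91 without it. Bnip3l, a mitophagy receptor, and its pseudogene Bnip3l-ps share sequence, so their counts are uncertain. For Hspa5 the list was Hyou1 (r = 0.98), Parn (0.97), Manf (0.96), Pdia4 (0.96), Sdf2l1 (0.95), Dnajc5 (0.95), Nfxl1 (0.95), Gfpt1 (0.95), Dnajb11 (0.95) and Creld2 (0.95). Of these, 6 (Hyou1, Manf, Pdia4, Sdf2l1, Dnajb11 and Creld2) were on the list of ER chaperones and folding enzymes, and Sdf2l1 and Dnajb11 kept an r of 0.98 and 0.97 without tumour 05. Gfpt1, the first enzyme of the hexosamine pathway, ranged from 26.6 to 107 CPM with its highest value in tumour 05.

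Other genes of the pathways were read from 8 lists that held 107 further genes kept. In the Hspa5 fit, 32 of 107 rose and 0 fell (edgeR, adjusted p under 0.05), beside 2.42% of all genes rising, and their median slope was 0.30 against -0.01 over all genes. Their median r with Hspa5 was 0.66, and 0.49 without tumour 05, against 0.00 over all genes in both cases. Without tumour 05, 2 of 107 were called, and without tumour 06, 17. With the tag family as a covariate 0 of the 107 were called, with the rank of Hspa5 in place of its level 0, and with the level of the non-polyadenylated RNAs 4. The calls of single list genes given below are those of the fit without these terms. In the Atf4 fit, 2 of 107 rose (Creld2 and Vegfa) and 0 fell, and leaving out 1 tumour at a time gave 0 to 6 (0 without tumour 04, 05, 06, 10, 11, 12 or 13).

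**Figure D5:**
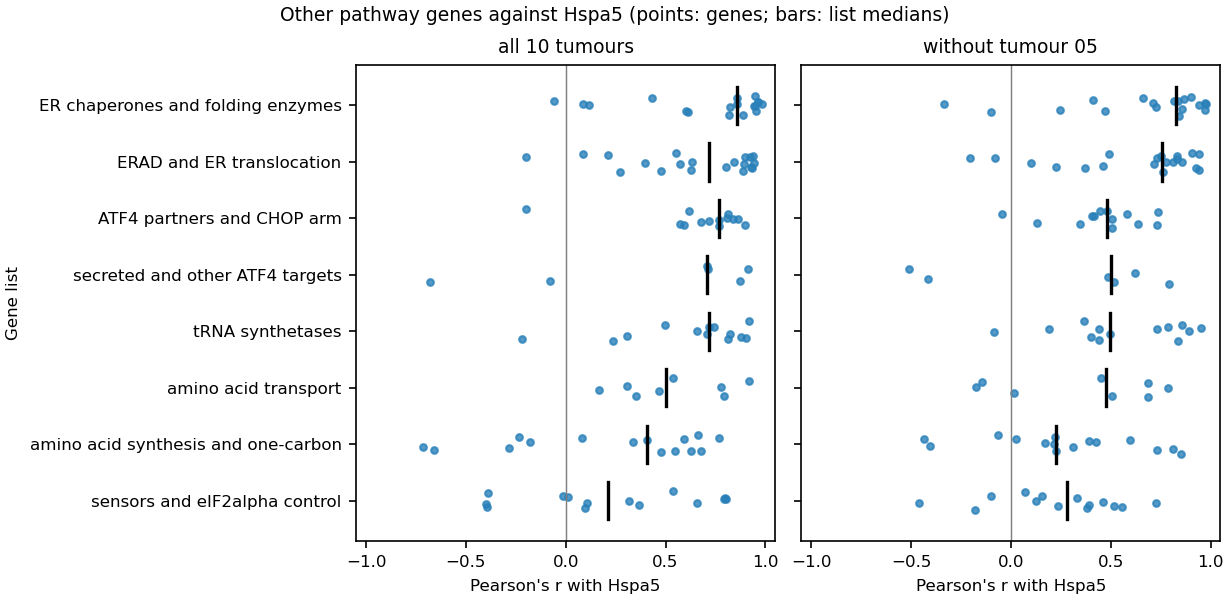
Pearson's r with Hspa5 for the other genes of the 8 pathway lists over all 10 tumours (left) and without tumour 05 (right), 1 point per gene and a bar at the list median. The 2 ER lists keep medians of 0.83 and 0.76 without tumour 05, and the amino acid synthesis list has the lowest, 0.23.

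Of the 18 genes of the ER chaperone list, 10 rose, with a median slope of 0.44 and a median r of 0.86 (0.83 without tumour 05). Hyou1, a chaperone of the same family as BiP, ranged from 167 to 874 CPM (slope 1.00 ± 0.08, edgeR adjusted p = 0.000422), and Manf, a secreted ER protein, from 91.7 to 419 CPM (slope 0.86 ± 0.09, adjusted p = 0.00168). Creld2, an ER-resident stress protein, had a median of 89.6 CPM and its 2 highest values, 949 and 341 CPM, in tumours 05 and 06 (slope 1.42 ± 0.13, edgeR adjusted p = 0.00151), whereas Sdf2l1 was nearly equal in tumours 05 and 06 with 183 and 181 CPM. Of the 20 genes of ER-associated degradation and translocation kept, 8 rose, among them Wfs1, Sel1l, Syvn1 and Edem1, with a median r of 0.72 (0.76 without tumour 05). Syvn1, the ubiquitin ligase that works with Sel1l and Herpud1, was highest in tumour 06 (287 CPM) and second in tumour 05 (240 CPM). Derl3 differed from these in that its highest value, 76.1 CPM, was in tumour 10, ahead of tumour 05 with 72.7 CPM (slope 1.71 ± 0.43, edgeR adjusted p = 0.059).

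Among 14 sensors and regulators of eIF2α, 3 rose with Hspa5 (2.42% of all genes), and tumour 05 was the highest for 4 of the 14 (18.3% of all genes kept). Ppp1r15a (GADD34), the phosphatase subunit that reverses eIF2α phosphorylation, ranged from 17.1 to 273 CPM (slope 1.15 ± 0.24, edgeR adjusted p = 0.028). Atf6 reached 287 CPM and Eif2ak3, which encodes PERK, 125 CPM in tumour 05, against medians of 119 and 46.6 CPM. Ern1, which encodes IRE1, had a slope of 0.27 ± 0.10 and did not pass (edgeR adjusted p = 0.178). The median r of the list was 0.21 (0.28 without tumour 05), the lowest of the 8 lists over 10 tumours.

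Of the 13 genes of ATF4 partners and the CHOP arm, 5 rose with Hspa5 (2.42% of all genes), and tumour 05 was the highest for 11 (18.3% of all genes kept). Atf3, a stress-induced factor of the same family, had a median of 60.3 CPM, with 628 CPM in tumour 05 as its highest value and 330 CPM in tumour 06 (slope 1.46 ± 0.30, edgeR adjusted p = 0.0291). Gadd45a (slope 1.39 ± 0.17, edgeR adjusted p = 0.00656), Ero1a (1.28 ± 0.22, adjusted p = 0.0191), Ero1b (0.68 ± 0.12, adjusted p = 0.0222) and Nupr1 (1.21 ± 0.25, adjusted p = 0.0291) were the others. Ero1a, an ER oxidase, had 186 CPM in tumour 05, and its second highest tumour was 09 with 51.3 CPM. Vldlr, a lipoprotein receptor, ranged from 6.65 to 132 CPM, the latter in tumour 05, and was not called (edgeR adjusted p = 0.106).

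Among the amino acid lists, of 15 genes of amino acid synthesis and one-carbon metabolism, 0 passed in edgeR, and 7 had an unadjusted p under 0.05 (5 rising), as had 2499 of all 12461 genes. DESeq2's Wald test called 2 (1 rising), beside 974 of 11977 genes in either direction. The median r of the 15 genes was 0.41 (0.23 without tumour 05). Mthfd2, a mitochondrial one-carbon enzyme, ranged from 9.40 CPM in tumour 11 to 34.7 CPM in tumour 05 (slope 0.55 ± 0.15, edgeR adjusted p = 0.0775), and Phgdh, which acts before Psat1 in serine synthesis, was lowest in tumour 11 too, at 1.14 CPM. The cytosolic enzymes Shmt1 and Mthfd1 were lowest in tumour 05, at 92.2 and 147 CPM, and had slopes of -0.40 ± 0.14 and -0.30 ± 0.12 (edgeR adjusted p = 0.137 and 0.188). Aldh1l2, a mitochondrial folate enzyme, had a median of 4.99 CPM and its highest values, 53.7 and 36.1 CPM, in tumours 05 and 10. Of 8 amino acid transporters kept, Slc7a5 (slope 0.70 ± 0.10, edgeR adjusted p = 0.00837) and Slc7a1 (1.04 ± 0.24, adjusted p = 0.0418) rose. Slc3a2, the partner chain of Slc7a5, had a slope of 0.65 ± 0.16 (edgeR adjusted p = 0.0522), and both Slc7a1 and Slc3a2 were lowest in tumour 11, at 2.27 and 47.2 CPM. Of 13 tRNA synthetase and export genes, Iars1 (slope 0.36 ± 0.07, edgeR adjusted p = 0.0258) and Nars1 (0.35 ± 0.08, adjusted p = 0.0354) rose. Of 6 secreted and other targets kept, Vegfa (slope 0.89 ± 0.13, edgeR adjusted p = 0.00955) and Eif4ebp1 (0.64 ± 0.10, adjusted p = 0.0105) rose, and Gdf15, a circulating stress hormone, was highest in tumours 05 and 06, at 207 and 194 CPM, with a median of 52.1 CPM (edgeR adjusted p = 0.0702).

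Between the 3 tag families, 0 of 10 members passed edgeR's F-test at an adjusted p under 0.05, beside 0.00802% of all genes (1 of 12462, and 1740 at an unadjusted p under 0.05). DESeq2's likelihood ratio test called 1 member, Hspa5, beside 508 of 11919 genes. The unadjusted p was under 0.05 for 7 members and was lowest for Hspa5 (edgeR p = 0.00618, adjusted p = 0.219). Without tumour 04, Hspa5 and Xbp1 passed (edgeR adjusted p = 0.0406 for both), beside 86 of 12557 genes. Without tumour 05, 0 members did.

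Relations of the members to 7 other measures (70 in all) were tested across the tumours by permutation, with 3 at an adjusted p under 0.05. Hspa5 rose with mouse Myc (r = 0.87, permutation p = 0.00174, adjusted p = 0.0453; rho = 0.59, permutation p = 0.0801, adjusted p = 0.411). This is the count of the mouse gene, and the level of the human MYC insertion was not measured. Whether reads of the insertion were counted for mouse Myc was not tested. Chac1 rose with the mean of the hypoxia genes (r = 0.86, permutation p = 0.00194, adjusted p = 0.0453; rho = 0.79, permutation p = 0.00897, adjusted p = 0.21), and Dnajb9 with that of the immediate early and heat shock genes (r = 0.83, permutation p = 0.0011, adjusted p = 0.0453; rho = 0.71, permutation p = 0.0262, adjusted p = 0.265). The latter mean includes Atf3, which is also on the list of ATF4 partners. After removal of the 2 tumours whose measure lay farthest from its median, these r were 0.74, 0.73 and 0.62 (exact permutation p = 0.0427, 0.0397 and 0.101), and no relation had an adjusted p under 0.05. Over the 7 tumours with low Rpph1 and Rmrp they were 0.26, 0.70 and 0.58 (exact permutation p = 0.542, 0.0808 and 0.215). The mean log2 level of the hepatocyte markers had an r of -0.85 with Trib3, -0.83 with Atf4 and -0.79 with Ddit3 (permutation p = 0.00438, 0.00499 and 0.00626, adjusted p = 0.052 for each; rho = -0.79, -0.68 and -0.66, permutation p = 0.00901, 0.0343 and 0.045, adjusted p = 0.21, 0.3 and 0.315). After removal of the 2 tumours farthest in this measure, these r were -0.37, -0.57 and -0.35 (exact permutation p = 0.372, 0.138 and 0.403). Its r with the other 7 members lay between -0.70 and 0.03, and its part in their levels was not tested. Each marker has equal weight in this mean, and Serpina1c varied most, from 0.893 to 121 CPM. Alb ranged from 13016 to 22960 CPM and Hnf4a from 614 to 897 CPM. The mean is therefore shaped largely by Serpina1c, and the r without this gene was not computed. Atf4 had an r of -0.78 with proliferation (permutation p = 0.00668, adjusted p = 0.052; rho = -0.88, permutation p = 0.00155, adjusted p = 0.108) and of 0.78 with the non-polyadenylated RNAs (permutation p = 0.00417, adjusted p = 0.052; rho = 0.75, permutation p = 0.0183, adjusted p = 0.256). With the 2 farthest tumours removed, these were -0.62 and 0.72 (exact permutation p = 0.102 and 0.0271). Library size had an r between -0.41 and 0.49 with the members.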

How the data were processed

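Polyadenylated RNA of liver tumours was sequenced from stranded mRNA libraries. The deposited file, made by the authors, is 1 count table with a row per gene and no normalisation. The submitters' processing notes name TopHat2, HTSeq and GRCm38, whereas the study's methods name other programs, so whether counting used the strand is not known. A column was matched to a tumour by the number in its name and title, which assumes that these are the same numbers, and 9 of 19 columns were not used. Gene names and positions came from GENCODE M39 (GRCm39) by stable identifier, in which 87.3% of identifiers have a symbol, and 210 of 214 listed genes were matched.

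R 4.3.3 ran edgeR 4.0.16 and limma 3.58.1, counts were scaled with TMM, and log2 CPM used a prior count of 2. filterByExpr over the 10 tumours kept 12462 genes. edgeR's quasi-likelihood tests used the centred log2 CPM of Atf4 or Hspa5, or the tag family, and DESeq2 1.42.0 was an alternative. On simulated counts for the Atf4 fit, 29.2% of 192 genes with a slope of 1 in either direction were recovered, and for the Hspa5 fit 84.4% of 186. Permutation tests were two-sided, with 100000 resamples for 10 tumours and exact for fewer. Python 3.11.15 with numpy 2.4.6, pandas 2.3.3 and matplotlib 3.10.9 was used. The alternatives changed the scaling, the filter, the prior count, the covariates, the tool and the tumours included.

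Named list genes were those with the smallest p in either fit (up to 4 a list) or the largest range (up to 3), and for likeness the 10 highest r. The members and lists were chosen with earlier results of these data known. Reads carried no molecular identifiers, so the limit that 3 counts give covers counting error only.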

Additional observations from a re-analysis of the deposited data

Results flagged for a closer look

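Atf4 in tumour 05 stood apart from the other 9 tumours. The gap to the next tumour divided by the whole range of log2 CPM was 0.488, above Dixon's critical value for 10 samples. None of the other 9 members passed this limit in these 10 tumours, and chance passes it in about 1 of 20 groups. The levels of Rpph1 and Rmrp, hypoxia genes and immediate early genes were also high in tumour 05, and their part in this value was not tested.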

How the results depend on the processing

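Across the 10 tumours the 2-fold spread count of 10 members stayed between 7 and 10 under each scaling, filter and prior count and with tumours left out, and was 8 at 4-fold. TMM factors were 0.927 to 1.11. Of the 16 member pairs with an adjusted p under 0.05, leaving out 1 tumour gave 1 to 20 (1 without tumour 05, 6 without tumour 06, 10 without tumour 08), and family deviations, removal of the 2 tumours farthest from the median, removal of tumours 05 and 06 and the 7 tumours with low Rpph1 and Rmrp each gave 0, and removal of tumours 11 and 12 gave 8 (the last 3 alternatives were chosen after seeing the data). Of the 16, Atf4 with Hspa5 (r = 0.77) turned to -0.01 without tumours 05 and 06, and none of the others fell below 0 in the 5 alternatives that gave 0 or 8.

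In the Atf4 fit, the 12 genes called became 0 with DESeq2 size factors, total counts, the family, the non-polyadenylated RNAs, the rank of Atf4, without tumours 05 and 06 or in the 7 tumours, 7 with no filter and 570 by DESeq2's Wald test. Leaving out 1 tumour gave 0 to 149: 88 without tumour 07, 149 without tumour 08, 144 without tumour 09 and 0 without each of the others. The members called, 0, became 5 by DESeq2 and 0 to 1 without 1 tumour. The 2 list genes became 0 under the same 7 alternatives as above, 21 by DESeq2 and 0 to 6 without 1 tumour.

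In the Hspa5 fit, the 355 genes became 202 with no filter, 974 by DESeq2, 5 with the non-polyadenylated RNAs, and 0 with the family, the rank of Hspa5, without tumours 05 and 06 or in the 7 tumours. Leaving out 1 tumour gave 2 to 344 (2 without tumour 05, 117 without tumour 06, 155 without tumour 11, 236 without tumour 13). The 5 members became 8 by DESeq2, 0 with the family, the non-polyadenylated RNAs, the rank, without tumours 05 and 06 or in the 7 tumours, and 0 to 5 without 1 tumour. The 32 list genes became 47 by DESeq2, 4 with the non-polyadenylated RNAs, 0 with the family, the rank, without tumours 05 and 06 or in the 7 tumours, and 2 to 32 without 1 tumour (2 without tumour 05).

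The 1 gene called between families became 27 with no filter, 53 with the 5 tags, 508 by DESeq2 and 0 to 175 without 1 tumour. The 3 relations to other measures became 0 without the 2 farthest tumours. Where a count moved because fewer tumours were fitted, power fell too; otherwise the cause was not tested. No paired analysis was possible because 1 group was analysed. Counting error weighs most on Chac1 (18 counts) and Asns (37 counts) in tumour 11, whose low counts go with a library of 16111538 counts, near the median.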
